A study of Mus musculus with 3 samples.

Results

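The Hox genes encode homeodomain transcription factors that lie in 4 clusters in the mouse, and 38 of them, represented by 42 probes among 32275 named genes on the arrays, are described here. They were taken by name, as the non-control probes of the HoxA, HoxB, HoxC and HoxD clusters, without use of their measured values. The tissue was the posterior frontal suture, the midline fibrous joint between the frontal bones of the skull vault. Gene expression was measured on 3 one-colour Agilent arrays, with 1 array for each group. The groups were C57BL/6 Runx2+/- mice at postnatal day 7, C57BL/6 wild-type (Runx2+/+) mice at day 7 and C57BL/6 wild-type mice at day 5. Runx2+/- mice carry a single functional copy of Runx2, a transcription factor required for bone formation. The labels give neither the number of mice behind an array nor the part of Runx2 that the mutant allele lacks. With no replicates, every comparison is between single hybridised samples and carries no p-value.

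Hox genes are activated along the body axis in the order in which they stand in each cluster, with low-numbered genes reaching the hindbrain and neck and high-numbered genes confined to the lower trunk, limbs and tail. Polycomb proteins keep the clusters silent where they are not used, and trithorax proteins keep them active elsewhere. The neural crest cells that build the frontal bones come from the front of the embryonic brain, a region known for lacking Hox expression, and forced Hox expression there is known to disturb skull formation. Blood progenitors, by contrast, are known to use several HoxA and HoxB genes.

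Probes behind the Hox signals are shown first, because each Hox measurement rests on a single short oligonucleotide. Agilent probes have 60 bases and are written 5′ to 3′ as deposited. Their coordinates are those of the deposited design, on mm9. For the undetected probe of Hoxc11 all 60 bases are given, with capitals marking the 24 bases that encode the conserved core of the third homeodomain helix, the part that lies in the major groove of DNA. This probe is therefore exonic and coding. For the others, which gave signal, the first 30 bases are given in lower case, and their place in the transcript (coding or untranslated) was not determined.
Hoxc11: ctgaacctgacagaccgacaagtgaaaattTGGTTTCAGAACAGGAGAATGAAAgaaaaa
Hoxd4: tcatatggcaggagctactgagaacataaa
Hoxd8: gtttgcctcaacaacataaacttcctaatg
Hoxd9: ggacactgtatttgctcgcatatgtattgg
Hoxa7: gacagttggaaaagcgtctttaagagactc
Hoxa9: taaaaagagagcaagctagaaagaaaaaga
The Hoxc11 probe lies at chr15:102787022-102787081 on the plus strand. The probes of Hoxd4, Hoxd8 and Hoxd9 lie at chr2:74566866-74566925, chr2:74545171-74545230 and chr2:74537676-74537735, all on the plus strand. Those of Hoxa7 and Hoxa9 lie at chr6:52165626-52165685 and chr6:52174165-52174224, both on the minus strand.

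Most Hox genes were not well above background in the suture. A gene was counted as detected where any of its probes was well above background, a flag that the scanner software sets for each spot. By that measure 5 of the 38 Hox genes were detected on the P7 Runx2+/- array, 0 on the P7 wild-type one and 4 on the P5 wild-type one. Of all named genes, 57.0% were detected on the P7 Runx2+/- array, 38.5% on the P7 wild-type one and 49.8% on the P5 wild-type array. On at least 1 array, 6 Hox genes (15.8%) were detected, against 58.9% of all genes. The 38 Hox genes had 42 probes and the 32275 named genes 52937, and more probes give a gene more chances of detection. Counted by probe, 5, 0 and 4 of 42 Hox probes were above background on the P7 Runx2+/-, P7 wild-type and P5 wild-type arrays. Of all 55681 probes, 47.3%, 29.2% and 40.1% were. The count of detected Hox genes was thus highest on the array where most genes were detected and lowest on the array where fewest were. The part of array brightness in the Hox counts was not tested. In a bulk sample, fewer cells of a type and less RNA per cell cannot be told apart.

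Detected genes came from 3 of the clusters. HoxA gave 2 of 10 genes (Hoxa7 and Hoxa9), HoxB gave 1 of 10 (Hoxb3), HoxC gave 0 of 9 and HoxD gave 3 of 9 (Hoxd4, Hoxd8 and Hoxd9). By paralogue number, 2 of 11 genes in groups 1 to 4 were detected on at least 1 array, 2 of 11 in groups 5 to 8, 2 of 4 in group 9 and 0 of 12 in groups 10 to 13. Hoxd4, Hoxd8 and Hoxd9 are next to each other in the HoxD cluster. The undetected HoxA genes were Hoxa2, Hoxa3, Hoxa4, Hoxa5, Hoxa6, Hoxa10, Hoxa11 and Hoxa13. The undetected HoxB genes were Hoxb1, Hoxb2, Hoxb4, Hoxb5, Hoxb6, Hoxb7, Hoxb8, Hoxb9 and Hoxb13. In HoxC, Hoxc4, Hoxc5, Hoxc6, Hoxc8, Hoxc9, Hoxc10, Hoxc11, Hoxc12 and Hoxc13 were undetected. In HoxD, Hoxd1, Hoxd3, Hoxd10, Hoxd11, Hoxd12 and Hoxd13 were.

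**Figure D1:**
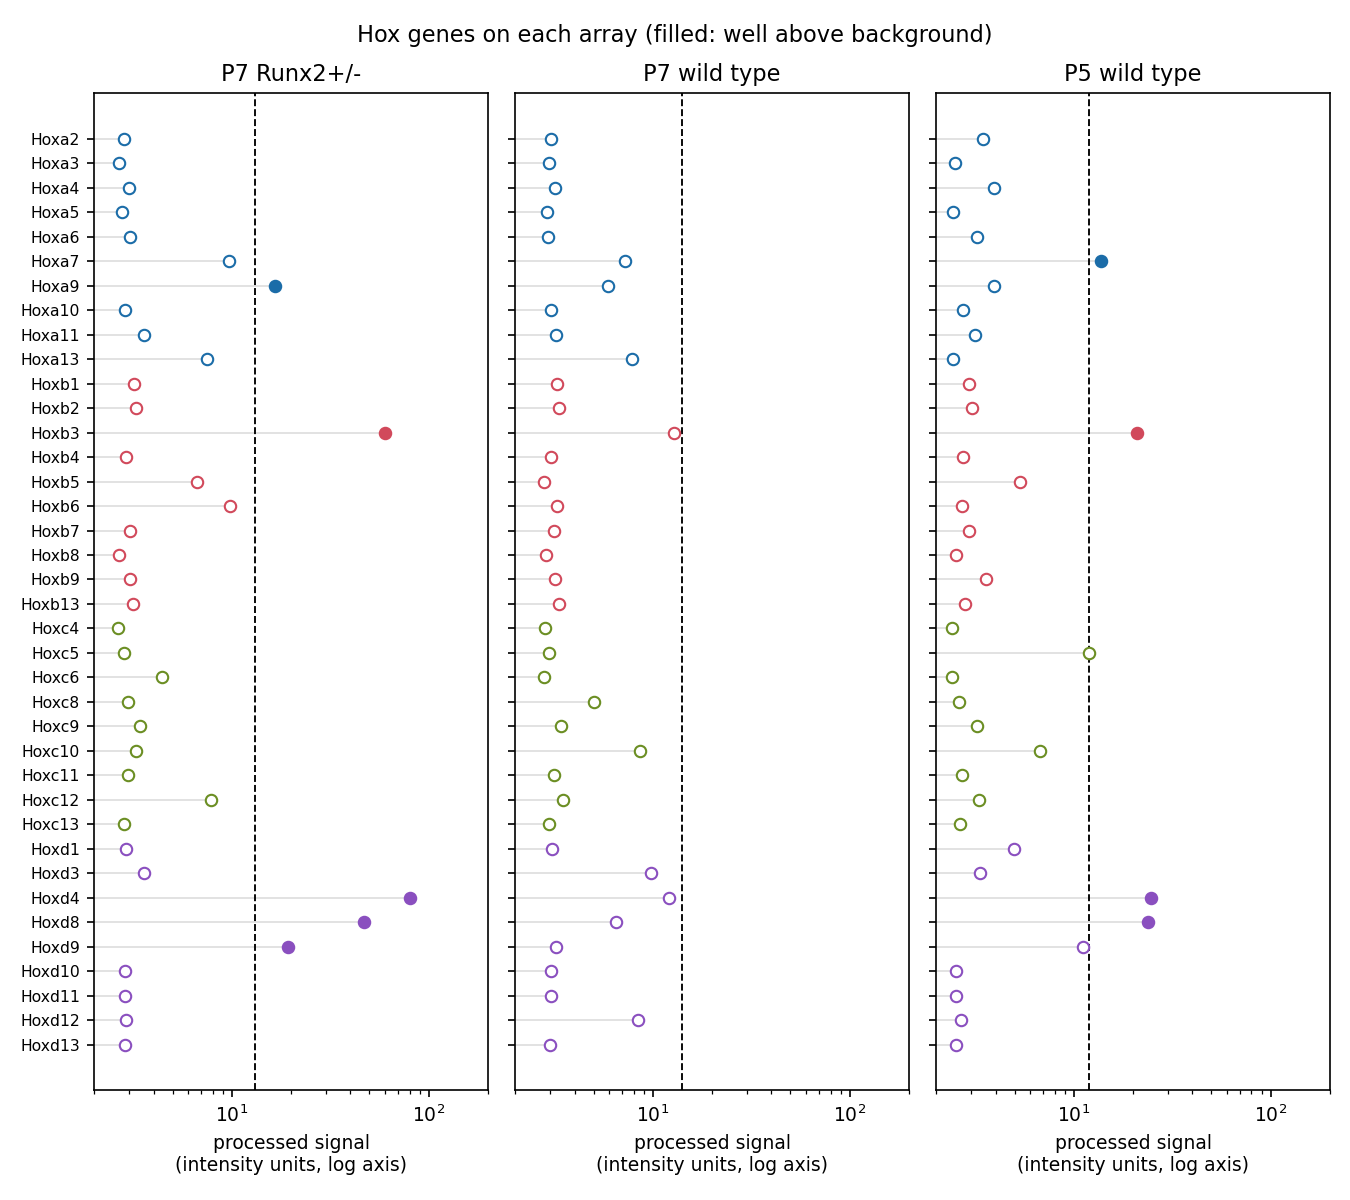
Processed signal (intensity units, log axis) of the brightest probe of each of the 38 Hox genes on the 3 arrays, coloured by cluster. Filled points are well above background, and the dashed line is the lowest signal of any probe so flagged on that array (13.1, 14.1 and 12 units). The filled points are 5 on the P7 Runx2+/- array, 0 on the P7 wild-type one and 4 on the P5 wild-type one.

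The brightest members were in HoxD and HoxB. Hoxd4, which patterns the neck vertebrae and hindbrain, had a processed signal of 79.9 ± 8.7 intensity units on the P7 Runx2+/- array, 12.1 ± 3.9 on the P7 wild-type one and 24.8 ± 4.0 on the P5 wild-type one. The error here and below is the scanner software's own estimate for the spot. Hoxd4 was well above background on the first and last of these arrays and just under the line on the P7 wild-type array. Hoxd8, a trunk-level gene of the same cluster, had 46.7 ± 5.7 units on the P7 Runx2+/- array, 6.5 ± 3.6 on the P7 wild-type one and 24 ± 3.9 on the P5 wild-type one. Hoxb3, active in the hindbrain and the hind pharyngeal arches, had 60.2 ± 6.7, 12.9 ± 3.5 and 21.0 ± 3.5 units on the P7 Runx2+/-, P7 wild-type and P5 wild-type arrays. These 3 genes were the members detected on more than 1 array.

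The other 3 detected genes were flagged on 1 array each and lay close to the line. Hoxd9, a trunk and limb gene, had 19.2 ± 3.6 units on the P7 Runx2+/- array, 3.2 ± 3.2 on the P7 wild-type one and 11.1 ± 3.1 on the P5 wild-type one. Hoxa9, known in blood progenitors and as a leukaemia gene, had 16.6 ± 3.3, 5.9 ± 3.1 and 3.9 ± 2.6 units on the P7 Runx2+/-, P7 wild-type and P5 wild-type arrays. Both were thus detected in the Runx2+/- sample alone. Relative to that array's 75th percentile, Hoxa9 lay at -2.9 and Hoxd9 at -2.69 log2 units. The lowest level that counted as detected was higher on the other arrays, at -0.69 for P7 wild type and -2.12 for P5 wild type. No order between the samples could therefore be read for Hoxa9 or Hoxd9. Hoxa7, a trunk-level gene, was detected in the P5 wild-type sample alone. It had 9.6 ± 2.8 units on the P7 Runx2+/- array, 7.2 ± 3.0 on the P7 wild-type one and 13.8 ± 2.9 on the P5 wild-type one.

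The remaining members were not well above background, though some gave a measured signal. Of the Hox probes not well above background, 29 of 37 on the P7 Runx2+/- array, 32 of 42 on the P7 wild-type one and 28 of 38 on the P5 wild-type one carried a surrogate, the small value the software writes where a spot does not exceed its background. The others had a signal significantly different from background by a weaker flag of the software. With that flag 13 Hox genes were detected on the P7 Runx2+/- array, 10 on the P7 wild-type one and 14 on the P5 wild-type one, and it was set for 4.87%, 4.87% and 3.25% of negative control spots. The highest signals under the line were 9.8 units on the P7 Runx2+/- array (Hoxb6), 12.9 on the P7 wild-type array (Hoxb3) and 11.9 on the P5 wild-type array (Hoxc5). Hoxc5 was the member nearest to detection in the HoxC cluster. It had 2.8 and 3.0 units on the P7 Runx2+/- and P7 wild-type arrays. Hoxa2, which sets the identity of the second pharyngeal arch skeleton, had 2.8, 3.0 and 3.5 units on the P7 Runx2+/-, P7 wild-type and P5 wild-type arrays. The limb and tail genes Hoxd13 and Hoxd11 had at most 3.0 units on any array. Other genes of groups 10 to 13 gave a measured signal, such as Hoxc10 at 8.6 units, Hoxd12 at 8.4 and Hoxa13 at 7.8 on the P7 wild-type array.

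How much a single dim spot can be relied on was measured from spots that should be dark and from probes spotted repeatedly. Of 308 negative control spots per array, 2 were well above background on the P7 Runx2+/- array, 2 on the P7 wild-type one and 0 on the P5 wild-type one, and the brightest reached 19.6, 31.7 and 6.6 units. Among probes with at least 5 spots that were mostly not above background, 3.28%, 2.29% and 3.07% of single spots were. All 6 detected Hox genes were read from a single spot per array. Hoxa9 and Hoxd9 on the P7 Runx2+/- array lay below the brightest negative control there, whereas Hoxb3, Hoxd4 and Hoxd8 lay above it. All 4 genes detected on the P5 wild-type array lay above the brightest negative control of that array. Every probe well above background there did so, the lowest at 12 units, so this does not set these 4 genes apart.

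Hoxa11 and Hoxb1 were each spotted 10 times. Hoxa11, needed for forearm formation, spanned 2.7 to 16.9 units on the P7 Runx2+/- array, 2.9 to 3.6 on the P7 wild-type one and 2.5 to 5.4 on the P5 wild-type array. Only the spot at 16.9 units was well above background, and the software marked it as an outlier among its repeats. Hoxb1, a hindbrain gene, stayed between 2.9 and 3.5 units on the P7 Runx2+/- array, between 3.0 and 3.5 on the P7 wild-type array and between 2.6 and 3.2 on the P5 wild-type array.

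Of the 4 Hox genes with 2 probes, 2 were detected, each by 1 of its probes. The other Hoxb3 probe, at chr11:96209002-96209061, had 2.9, 3.0 and 2.6 units on the P7 Runx2+/-, P7 wild-type and P5 wild-type arrays. The other Hoxa9 probe had 3.1, 3.3 and 2.9 units in the same order of arrays. The amino acid sequence WFQNRRMK, taken as the helix core of the homeobox, was searched for among 52937 probes with a gene name. It was encoded by 2, the detected probe of Hoxb3 and that of Hoxc11. Probes with any other form of the helix were not counted. The Hoxc11 probe was not above background on any array, at 3.0, 3.1 and 2.7 units. The longest run that the detected Hoxb3 probe shared with a probe of another gene was 20 bases, with a probe of Nkx1-1, another homeobox gene, which is named here after its values were seen. That Nkx1-1 probe had 77.8, 10.9 and 60.8 units on the P7 Runx2+/-, P7 wild-type and P5 wild-type arrays. Like the Hoxb3 probe, it was well above background on the P7 Runx2+/- and P5 wild-type arrays. Another Nkx1-1 probe, which shared 19 bases with the Hoxb3 probe, had 21.7, 4.3 and 18.4 units in the same order of arrays. It was well above background on the same arrays. Probes of Nkx2-4 and Nkx1-2, which shared 19 and 14 bases with the Hoxb3 probe, were not above background on any array, at 3.1, 3.2 and 5.3 units and at 3.5, 3.0 and 4.8 units. Whether transcripts of other homeobox genes bound the Hoxb3 probe was not tested. Other detected Hox probes shared runs of bases too. The detected Hoxa9 probe shared at least 12 bases with each of 41 probes of other genes, the longest run having 18. The longest run of the Hoxd8 probe had 16 bases, and those of Hoxd4, Hoxd9 and Hoxa7 had 13, 13 and 12. Whether other transcripts bound these probes was not tested either. Without the Hoxb3 and Hoxc11 probes that encode the searched sequence, 4 Hox genes were detected on the P7 Runx2+/- array, 0 on the P7 wild-type one and 3 on the P5 wild-type one.

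The 6 detected probes had a median of 42.5% G and C (range 35.0 to 50) and the other 36 a median of 39.2% (30 to 55.0). They began at a median of base 1699 of their transcripts (1230 to 2208), and the others at base 1557 (268 to 3790). The ranges of the detected probes lay inside those of the others for both features.

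Other homeobox genes were, as a whole, detected more often, but 1 class of them was not. Of 148 homeobox genes outside the Hox clusters, taken from fixed lists, 64 (43.2%) were detected on the P7 Runx2+/- array, 44 (29.7%) on the P7 wild-type one and 59 (39.9%) on the P5 wild-type array. These 148 genes had 201 probes, more per gene than the Hox genes. Forebrain and midbrain homeobox genes were as rarely detected as Hox genes, with 3 of 25 (12%) on the P7 Runx2+/- array, 1 (4.0%) on the P7 wild-type one and 2 (8.0%) on the P5 wild-type one, against 13.2%, 0% and 10.5% of Hox genes. Low detection was thus found in that class too. Trunk and other homeobox genes followed, with 18, 8 and 14 of 50, and the CUT, POU and zinc finger classes had 14, 11 and 14 of 32. Craniofacial homeobox genes had 19, 16 and 19 of 30. The Pbx, Meis, Pknox and Tgif genes, whose products include the DNA-binding partners of Hox proteins, had 10, 8 and 10 of 11. The partners of Hox proteins were therefore detected in the same samples in which most Hox genes were not.

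**Figure D2:**
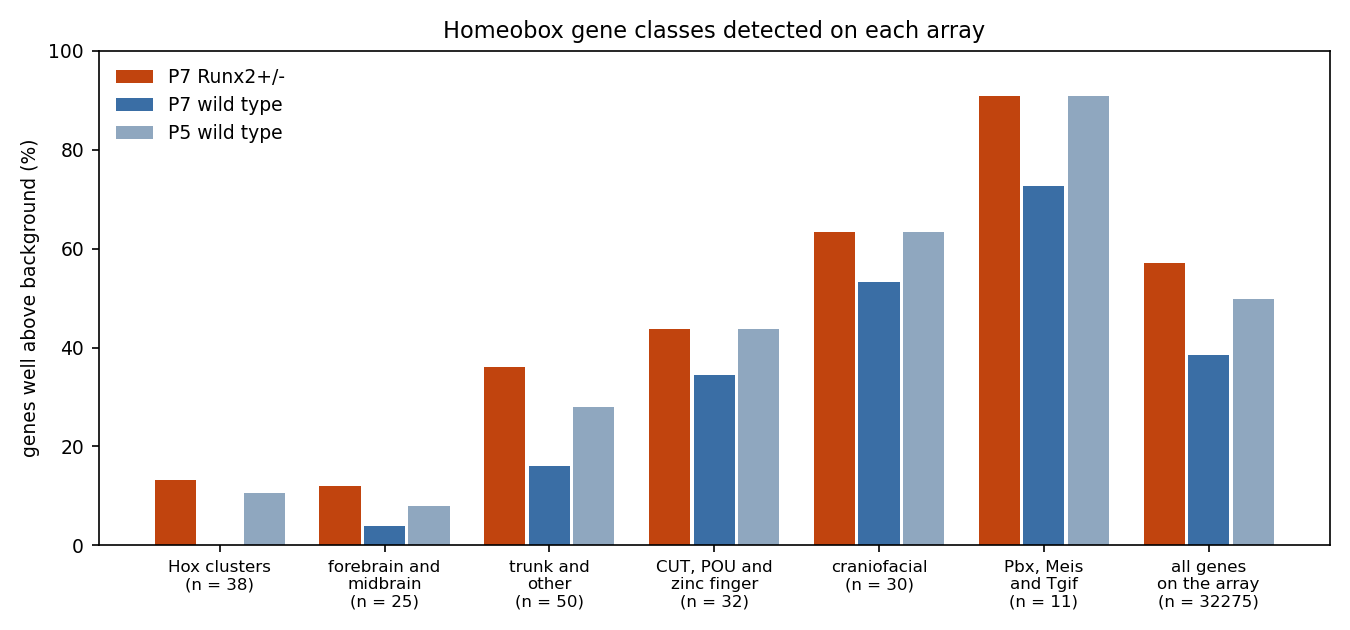
Share of genes well above background (%) in each class on the P7 Runx2+/-, P7 wild-type and P5 wild-type arrays, from 1 array per group, with the number of genes under each class. Hox genes reach 13.2%, 0% and 10.5%, against 63.3%, 53.3% and 63.3% of craniofacial homeobox genes.

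The detected Hox genes were also dim, although the brightness of different probes depends on their sequence as well as on the amount of transcript. The brightest was Hoxd4, at 79.9 units on the P7 Runx2+/- array and 24.8 on the P5 wild-type array. On these arrays 43 (29.1%) and 47 (31.8%) of the 148 other homeobox genes were brighter, all of them detected. With 0 Hox genes detected on the P7 wild-type array, none was ranked there. Other homeobox genes that were detected had medians of 165.5, 63.6 and 88.7 units on the P7 Runx2+/-, P7 wild-type and P5 wild-type arrays.

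**Figure D3:**
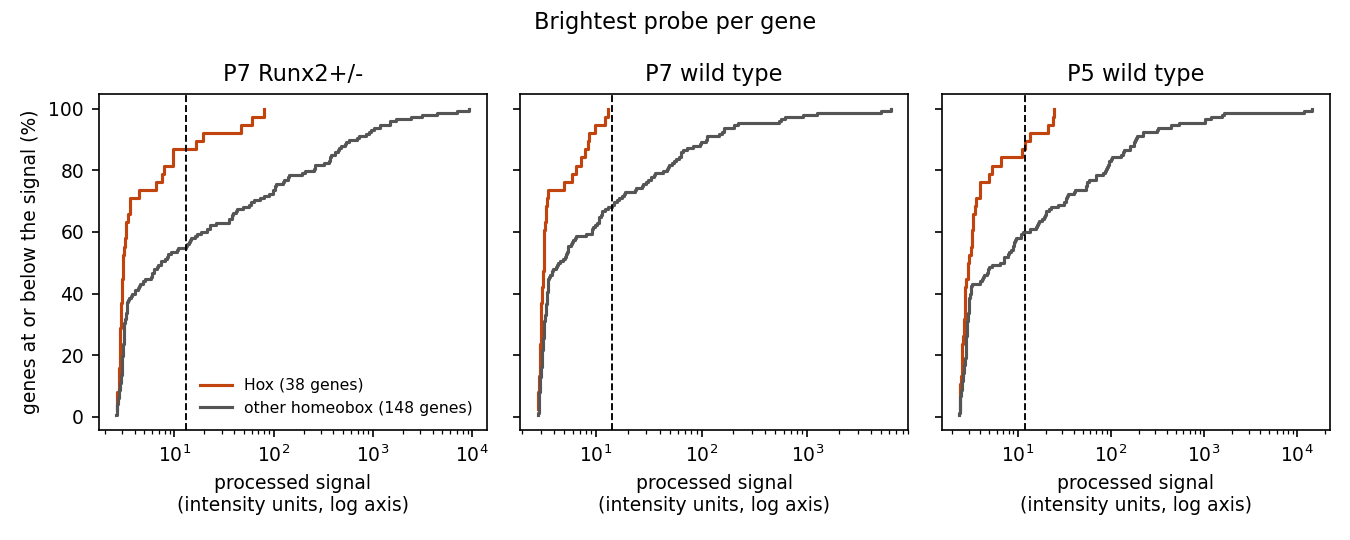
Cumulative share of genes (%) by the processed signal (intensity units, log axis) of their brightest probe, for Hox genes and for other homeobox genes on each array. The dashed line is the lowest signal of any probe well above background. The Hox curves end at 79.9 units on the P7 Runx2+/- array, under the dashed line on the P7 wild-type array and at 24.8 units on the P5 wild-type array.

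Among the brightest comparators, Prrx2, a regulator of craniofacial mesenchyme, had 3104.2, 537.6 and 1179.3 units on the P7 Runx2+/-, P7 wild-type and P5 wild-type arrays. Dlx3, a regulator of bone and skin, had 2434.0, 1248.5 and 1652.0 units, and Six2, active in skeletal and renal progenitors, had 4431.7, 615.8 and 1022.7 units in the same order. Lhx6, known in the jaw mesenchyme and forebrain, reached 6989.9, 5045.8 and 14414.0 units with 1 probe, but its other probes had at most 19.3 units on any array. Among the Hox partners, Pbx3 had 690.5, 97.5 and 158.8 units, Pbx2 had 361.3, 57.5 and 134.6, and Meis3 had 1491.9, 566.4 and 1573.9. Other probes of Meis3 were dimmer, at 577.1, 219.6 and 260.5 units and at 46.1, 22.6 and 34.6 units. So were other probes of Six2, at 185.7, 37.8 and 32.1 units and at 145.7, 30.4 and 98.5 units. With their brightest probes, Prrx2, Dlx3, Six2, Pbx2, Pbx3 and Meis3 exceeded the brightest Hox gene on every array. The comparators here and in the next paragraph were chosen as the brightest members of their lists among those detected on all arrays. A lead over the Hox genes thus follows in part from that choice. On the P7 wild-type array no Hox gene was detected, so any detected gene had to exceed them there.

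The comparators from other classes included Zfhx3 (946.5, 220.7 and 538.5 units on the P7 Runx2+/-, P7 wild-type and P5 wild-type arrays) and Zeb1, a repressor of epithelial genes (1491.8, 155.7 and 320.8). Zhx3 and Adnp also lay far above the Hox genes, at 145.8 and 99.6 units on the P7 wild-type array with their brightest probes, while their other probes were not above background there (3.5 and 8.1 units for Zhx3, 15.0 for Adnp). Irx3 and Meox2, which act in mesoderm, had 521.6, 72.5 and 101.5 units and 454.3, 35.5 and 93.5 units. Nkx2-2 was the forebrain and midbrain gene detected on all arrays, at 49.1, 43.2 and 82.8 units, with its other probe at background. The probe named Nanog, for a pluripotency factor whose processed pseudogenes it may not separate, had 536.0, 906.4 and 1026.7 units.

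Most genes on either side of the clusters were detected. The 4 nearest protein-coding genes on each side of each cluster, in the order of the GRCm38.p6 annotation, gave 31 genes on the array. Of these, 27 were detected on the P7 Runx2+/- array, 23 on the P7 wild-type one and 28 on the P5 wild-type one. Of the 8 genes directly at a cluster edge, 6, 5 and 6 were. Of all named genes, 57.0%, 38.5% and 49.8% were. Mtx2, a mitochondrial import gene beside Hoxd1, had 502.4, 61.7 and 169.2 units on the P7 Runx2+/-, P7 wild-type and P5 wild-type arrays. Skap2, which adjoins the HoxA cluster, had 206.0, 32.2 and 96.6 units, Skap1, beside Hoxb1, had 80.5, 15.5 and 32.9, and Calcoco1, beside Hoxc13, had 66.1, 31.3 and 43.2. The homeobox gene Evx2, which adjoins Hoxd13, had 124.6, 63.8 and 128.4 units with 1 probe and 3.4, 3.4 and 3.2 with another. Its counterpart Evx1, beside Hoxa13, was not above background on any array, at 2.9, 3.1 and 2.7 units. Ttll6, beside Hoxb13, was not detected on any array either, at 4.1, 3.4 and 7.9 units. Smug1, a DNA repair gene beside Hoxc4, had 64.8, 12.2 and 16.1 units and was not detected on the P7 wild-type array. Within the clusters, the antisense transcript of Hoxa11 had 3.2, 3.4 and 6.2 units and was not detected. Nor were the noncoding transcripts Gm11538, Gm53 and Hoxd3os1, the highest of them Hoxd3os1 at 6.9 units on the P7 Runx2+/- array.

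Differences between the samples could be read for few Hox genes. Signals were set relative to each array's 75th percentile, which was 124.3 units on the P7 Runx2+/- array, 22.8 on the P7 wild-type one and 52.1 on the P5 wild-type one. On this log2 scale the lowest level that counted as detected was -3.25, -0.69 and -2.12 on these arrays. A gene detected on 1 array of a pair had a difference only as a bound, and only where it exceeded the lowest detectable level of the other array. Between P7 Runx2+/- and P7 wild type, 1 Hox gene had a bound and 0 were at least 2-fold apart, against 18.6% of the 13498 genes with an order (5.21% higher and 13.4% lower). That gene was Hoxd4, at -0.64 on the P7 Runx2+/- array and below the limit of -0.69 on the P7 wild-type array, a bound of 0.05 in favour of the Runx2+/- sample. This margin was smaller than the spot SD, which was 0.11 log2 units on the P7 Runx2+/- array and 0.18 in P7 wild type, so no order is read from it. Between P7 and P5 wild type, 0 Hox genes could be ordered, while 9.51% of 13379 genes with an order were at least 2-fold apart (6.38% higher and 3.12% lower in P7).

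P7 Runx2+/- and P5 wild type differ in both age and genotype, whose effects cannot be told apart, and the 3 pairs share arrays. Between them 4 Hox genes could be ordered and 1 was at least 2-fold apart, against 23.8% of 17145 genes (9.09% higher and 14.7% lower). Hoxd4 lay at -0.64 on the P7 Runx2+/- array and -1.07 on the P5 wild-type array, a log2 difference of 0.44. Hoxb3 lay at -1.05 on the P7 Runx2+/- array and -1.31 on the P5 wild-type array, a difference of 0.27. Hoxd8 lay at -1.41 on the P7 Runx2+/- array and -1.12 on the P5 wild-type array, a difference of -0.29. All 3 lay within 2-fold. The spot SD was 0.11 log2 units on the P7 Runx2+/- array and 0.16 on the P5 wild-type array for repeated probes above background. Those probes were of any brightness, so this SD may understate the error of dim single spots. An example is Hoxb3, at 21.0 ± 3.5 units on the P5 wild-type array. Over the alternative processings the difference of Hoxd4 ran from -0.05 to 0.59 and that of Hoxb3 from -0.13 to 0.44, while Hoxd8 ran from -0.43 to -0.14. Hoxa7 was at least 2.51-fold lower in the Runx2+/- sample, a bound of -1.33 that was -0.92 after quantile normalization and -0.71 after normexp background correction. It rests on a P5 wild-type spot at 13.8 units, where the lowest detected probe of that array had 12 units.

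The rank of a probe among all probes of its array was read only where the probe was well above background. On the P7 Runx2+/- array Hoxd4 stood at percentile 70.7, Hoxb3 at 68.0, Hoxd8 at 65.4, Hoxd9 at 55.7 and Hoxa9 at 54.0. On the P5 wild-type array Hoxd4 stood at percentile 66.9, Hoxd8 at 66.5, Hoxb3 at 65.0 and Hoxa7 at 59.9. The share of probes that were not above background was 52.7%, 70.8% and 59.9% on the P7 Runx2+/-, P7 wild-type and P5 wild-type arrays. Hoxd9 and Hoxa9 on the P7 Runx2+/- array and Hoxa7 on the P5 wild-type array thus stood next to the probes that were not detected.

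**Figure D4:**
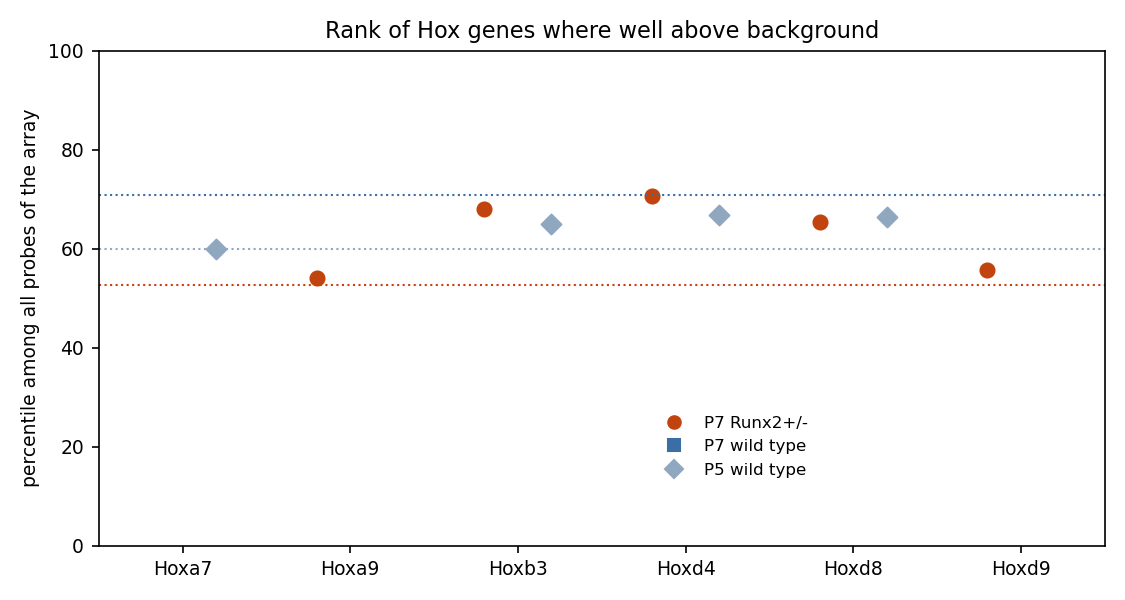
Percentile of a Hox gene's probe among all probes of its array, drawn where the probe was well above background. Dotted lines mark the share of probes not above background (52.7%, 70.8% and 59.9% on the P7 Runx2+/-, P7 wild-type and P5 wild-type arrays). The points are 5 on the P7 Runx2+/- array, 0 for P7 wild type and 4 for P5 wild type, and the highest is Hoxd4 at 70.7.

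Genes that control the clusters were mostly detected. Of 23 Polycomb genes, 23 were above background on the P7 Runx2+/- array, 17 on the P7 wild-type one and 22 on the P5 wild-type one. Of all named genes, 57.0%, 38.5% and 49.8% were. Eed, a core subunit of the complex that methylates histone H3 on silent genes, had 648.5, 74.0 and 196.3 units, and its catalytic partner Ezh2 had 210.2, 32.2 and 74.5, on the P7 Runx2+/-, P7 wild-type and P5 wild-type arrays. Between P7 Runx2+/- and P7 wild type, 21 Polycomb genes could be ordered, of which 3 were at least 2-fold higher (5.21% of all genes) and 1 at least 2-fold lower (13.4% of all genes), with a list median of 0.50 against 0.15 for all genes. Suz12 and Phf1 were at least 2.18-fold and 2.64-fold higher in the Runx2+/- sample, since neither brightest probe was above background in P7 wild type. Phc3 was 2.01-fold higher and Cbx7, which reads that histone mark, 3.26-fold lower after scaling. Cbx7 had 26.9 units on the P7 Runx2+/- array and 16.0 on the P7 wild-type one, where the lowest detected probe had 14.1 units. Between P7 and P5 wild type, 0 of 20 Polycomb genes were 2-fold apart, with a list median of 0.16 against 0.05 for all genes.

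Of 11 trithorax-group genes on the array, 11, 10 and 11 were detected on the P7 Runx2+/-, P7 wild-type and P5 wild-type arrays, where 57.0%, 38.5% and 49.8% of all genes were. The histone methyltransferase gene Kmt2d was 2.14-fold lower in P7 Runx2+/- than in P7 wild type, the single call among 10 ordered genes, and Dpy30 was 2.07-fold lower in P7 than in P5 wild type. The list medians were -0.11 for genotype and -0.07 for age, against 0.15 and 0.05 for all genes, of which 13.4% and 3.12% were at least 2-fold lower. Genes for retinoic acid and other inputs to Hox transcription were detected for 12, 9 and 9 of 13. Between P7 Runx2+/- and P7 wild type 2 of 9 were at least 2-fold higher and 0 lower, against 5.21% and 13.4% of all genes, with a list median of 0.07 against 0.15. The retinoic acid receptor Rarb had 236.2 units on the P7 Runx2+/- array and 20.0 on the P7 wild-type array, and was 2.17-fold higher after scaling. Cyp26b1, which breaks retinoic acid down, had 1427.2 and 109.9 units on these arrays and was 2.38-fold higher.

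Bone genes were present as the suture label implies, with 8 of 8 osteoblast markers detected on every array and summed levels of 268.0, 1340.0 and 887.0 times the 75th percentile on the P7 Runx2+/-, P7 wild-type and P5 wild-type arrays. Some markers of other cells were detected too, on arrays where 57.0%, 38.5% and 49.8% of all genes were. Of 11 markers of blood progenitors, 10 were detected on the P7 Runx2+/- array, 4 on the P7 wild-type one and 7 on the P5 wild-type one, and their summed level was 55.0, 28.6 and 26.6 times the 75th percentile. Mecom was undetected throughout, and Kit, Flt3, Gata2, Spi1, Myb and Gfi1 were undetected on the P7 wild-type array. The share of progenitor markers detected on that array, 36.4%, was near that of all genes. Cd34, which endothelium also expresses, made up 43.6, 19.1 and 16.2 of these sums, and the other markers summed to 11.4, 9.43 and 10.4. The number of detected progenitor markers had the same order over the arrays as those of Hox genes, of other homeobox genes and of all genes, and its part in the Hox counts was not tested. Neuronal and glial markers were detected for 6, 4 and 7 of 8 genes, with sums of 65.2, 254.0 and 279.0, of which Snap25 gave 60.5, 249.0 and 267.0 and the others 4.68, 4.81 and 12.1. Skeletal muscle markers were detected for 3 of 8 (37.5%) on every array, below the share of all genes, with sums of 4.49, 5.03 and 7.33. Neutrophil markers were detected for 8 of 8 on every array, with sums of 350.0, 77.2 and 881.0. Endothelial markers were detected for 8, 7 and 8 of 8, with sums of 262.0, 170.0 and 178.0. Egfl7 gave 152.0, 49.9 and 59.7 of the endothelial sums, and the other endothelial markers gave 110.0, 121.0 and 118.0. Meningeal markers were detected for 6, 5 and 6 of 6, with sums of 54.5, 46.7 and 78.8.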

How the data were processed

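Each group's suture RNA was amplified with a Cy3 label and read on 1 Agilent array, as the labels' protocols state. The authors deposited scanner files whose processed signal is an intensity on a linear scale, corrected for background within the array, per the file headers (Feature Extraction 10.7.1.1, although the submitters' processing notes name 9.5.1.1). The flags per spot come from the same files. A deposited table of the authors' processed intensity values, whose columns each have a median of 12.59 and which was made by steps that no source used here states, served as an alternative.

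Control spots and spots marked as outliers were left out, and spots of a probe were averaged on the log2 scale, giving 55681 probes. A probe was above background where more than 50% of its kept spots were flagged well above background. No spot was saturated. Log2 values were taken relative to the 75th percentile of their array. The probe with the highest mean over the 3 arrays stood for its gene. A probe not above background took the higher of its own level and the lowest level of any probe that was. Gene names other than Hox were updated through RefSeq accessions of GRCm38.p6 for 27229 probes, of which 2837 received a newer symbol, and 2744 probes had only an identifier. Kmt2a was not found among the names. Some genes and 1 probe sequence that the rules would name are not reported here. The step that orders genes between samples was tested on simulated arrays, with changes set in probes above background on both arrays of a pair. Detection calls and brightness ranks were not simulated. Tools were Python 3.11.15, pandas 2.3.3, Biopython 1.88, R 4.3.3 and limma 3.58.1.

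The genes named are every Hox gene, with values for those above background on any array, the 4 brightest members above background on all arrays of each other homeobox list (fewer where not reported, 1 in the forebrain and midbrain list), and up to 4 members of each list of Hox regulators at least 2-fold apart for genotype or age. The remaining Hox genes with values, the cluster neighbours, the noncoding transcripts within the clusters, Nkx1-1, Nkx1-2, Nkx2-4, Cd34, Snap25, Egfl7, Eed and Ezh2 were added after their values were seen. Hox members and all lists were chosen with earlier results of these data known. Having 3 arrays in all limits precision.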

Additional observations from a re-analysis of the deposited data

How the results depend on the processing

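Of 60 recomputed values, 52 stayed within 1.5 times the reported count. Some of them could hardly move. The detected Hox genes had 1 spot per probe and array, so the settings for outlier and repeated spots could change little. The flag for detection mattered most. With the weaker flag that asks only whether a spot differs significantly from its background, 21 Hox genes were detected on at least 1 array, 13 on the P7 Runx2+/- array, 10 on the P7 wild-type one and 14 on the P5 wild-type one. With detection required on at least 2 arrays, 3 remained (Hoxb3, Hoxd4 and Hoxd8). Leaving out each array in turn, a choice made after seeing the data, gave 4 to 6 genes, and the 4 came from leaving out the P7 Runx2+/- array. The count of Hox genes at least 2-fold apart between P7 Runx2+/- and P5 wild type was 0 after quantile normalization, 0 after normexp (offset 50) and 0 at a 3-fold threshold. The counts of the other pairs were 0 under every alternative run. In the main run 1 Hox gene could be ordered between P7 Runx2+/- and P7 wild type, and 0 between P7 and P5 wild type. The counts of these pairs therefore had little room to move. The cause of the changed counts was not tested, apart from the stricter and weaker thresholds themselves. No paired analysis was possible because each group has 1 array. Signal over background limits every Hox value, and Hox genes under about 12 to 14 units were not well above background.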
